A study of Mus musculus with 12 samples.

Results

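The 10 genes described here encode the proteins that hold the kinase complex mTORC1 on the lysosome: the 5 subunits of Ragulator (Lamtor1, Lamtor2, Lamtor3, Lamtor4 and Lamtor5), the Rag GTPases Rraga, Rragc and Rragd, and folliculin (Flcn) with its partner Fnip1. They were taken by name, as a gene family, from the 21887 protein-coding genes that RefSeq places on chromosomes 1 to 19, X and Y of the mouse build GRCm38. For each gene, peaks of the transcription factor USF2 were collected whose summit, the point of highest read pileup, lay within 1000 bp of either end of the gene or inside it. A summit within 1000 bp of a gene end is called a gene-end peak below.

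Binding was measured by chromatin immunoprecipitation with sequencing (ChIP-seq) with an antibody to Usf2 in mouse embryonic fibroblasts (MEFs), cells grown from mouse embryos. The starved group, labelled Glucose starvation, and the normal group, labelled Normal, had 2 libraries each, and both had the genotype WT. The labels give neither the length of starvation nor the age of the embryos, and as separate cultures are not mentioned either, differences between libraries of a group may be technical, and p-values then measure no more than that. The other 8 of the 12 samples, inputs and H3K27ac libraries, were not analysed here.

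Ragulator is a scaffold on the cytoplasmic face of the lysosomal membrane. It holds heterodimers of Rag GTPases, which recruit mTORC1 when amino acids are plentiful, and mTORC1 then promotes growth and restrains autophagy. Folliculin with Fnip1 acts on the nucleotide state of Rragc and Rragd and is needed for mTORC1 to phosphorylate the lysosomal gene regulators TFEB and TFE3. USF2 is a basic helix-loop-helix leucine zipper protein that binds the E-box CACGTG, the core of the motif also read by TFEB and TFE3.

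The authors' peak caller gave each peak a fold enrichment over local background and a −log10 q, both of which hold within their own list. The number of reads at each summit and the local background were worked back from the deposited fold and p-value. The lists held 825 and 1186 peaks in the starved libraries and 1645 and 2124 in the normal libraries. Peaks were at least 306 bp wide in both starved lists and at least 152 bp wide in both normal lists. The lowest background was 0.131 and 0.133 reads in starved 1 and starved 2, and 0.0979 reads in both normal lists. Divided by the width of the narrowest peak, it was 428.4 and 434.1 reads per Mb in starved 1 and starved 2. In normal 1 and normal 2 it was 644.0 and 644.1 reads per Mb. The backgrounds of single peaks given below are not divided by width. Depth, calling width and condition cannot be told apart in these lists, and a gene without a peak is one that did not pass the caller's threshold. The lowest summit of every list had 3 reads, and the median summit had 8 and 6 reads in the starved lists and 5 and 6 reads in the normal lists.

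The promoters that carry the results are shown first. The sequences are RefSeq's for GRCm38.p6, from 250 bp before to 50 bp after the transcription start, read 5′ to 3′ on the gene's strand, with CACGTG in capitals. CACGTG is its own reverse complement, so both strands were searched together. Lamtor1 (chr7:101905587-101905886, plus strand) was the gene with a USF2 peak in every list, Rragc (chr4:123917183-123917482, plus strand) had a peak in normal 2, and Rragb (chrX:153139708-153140007, plus strand), a Rag gene outside the 10, had peaks in the starved lists.
Lamtor1: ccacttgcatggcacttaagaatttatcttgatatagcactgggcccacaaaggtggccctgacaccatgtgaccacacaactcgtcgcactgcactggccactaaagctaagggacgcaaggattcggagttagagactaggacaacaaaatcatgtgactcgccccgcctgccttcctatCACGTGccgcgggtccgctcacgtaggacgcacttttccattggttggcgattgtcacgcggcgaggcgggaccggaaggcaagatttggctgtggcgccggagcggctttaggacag
Rragc: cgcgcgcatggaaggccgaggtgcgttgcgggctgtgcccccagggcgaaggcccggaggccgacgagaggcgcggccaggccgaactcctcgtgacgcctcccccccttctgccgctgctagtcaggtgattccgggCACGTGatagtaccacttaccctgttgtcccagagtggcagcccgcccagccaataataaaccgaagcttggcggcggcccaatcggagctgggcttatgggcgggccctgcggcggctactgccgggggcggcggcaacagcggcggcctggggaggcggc
Rragb: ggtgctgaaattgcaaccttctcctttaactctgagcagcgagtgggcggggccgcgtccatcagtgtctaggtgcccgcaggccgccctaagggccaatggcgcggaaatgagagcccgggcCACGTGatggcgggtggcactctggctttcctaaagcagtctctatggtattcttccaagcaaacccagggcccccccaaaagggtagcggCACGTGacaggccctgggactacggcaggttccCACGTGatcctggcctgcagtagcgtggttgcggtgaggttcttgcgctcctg

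Fnip1 and Lamtor4 also held the hexamer but had no USF2 peak in any list. Their stretches round each CACGTG are shown for comparison (Fnip1 at chr11:54438092-54438121, Lamtor4 at chr5:138255350-138255379 and chr5:138255366-138255395, all on the plus strand).
Fnip1: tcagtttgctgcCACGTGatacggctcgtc
Lamtor4, first: gcagaaagttaaCACGTGaacagcttttca
Lamtor4, second: tgaacagcttttCACGTGtaaaccaaacca

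Of the 10 genes, 4 had a gene-end peak in at least 1 list: Lamtor1, Lamtor5, Flcn and Rragc. Over all protein-coding genes this share was 4.05%. The 10 genes were chosen with earlier results of these data known, and the 2 shares were not compared by a test. By list, 1 and 2 of the 10 were called in the starved libraries and 2 and 3 in the normal libraries. The same rule called 2.01% and 2.30% of all protein-coding genes in starved 1 and starved 2, and 2.54% and 2.68% in normal 1 and normal 2. In both starved lists 1 member was called, against 1.78% of all genes, and in both normal lists 2 were called, against 2.19% of all genes. Lamtor1 alone was called in all 4 lists, where the share of all genes was 1.13%. The number of members called averaged 1.5 ± 0.707 in the starved lists and 2.5 ± 0.707 in the normal lists (SD, n = 2 each), a difference of -1. When the condition labels were permuted in all 6 ways, the exact two-sided p was 0.67, and 0.33 is the smallest value that this number of lists allows. None of the 10 genes held a peak farther inside than 1000 bp from both ends, which 6.65% of all protein-coding genes did in at least 1 list.

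**Figure D1:**
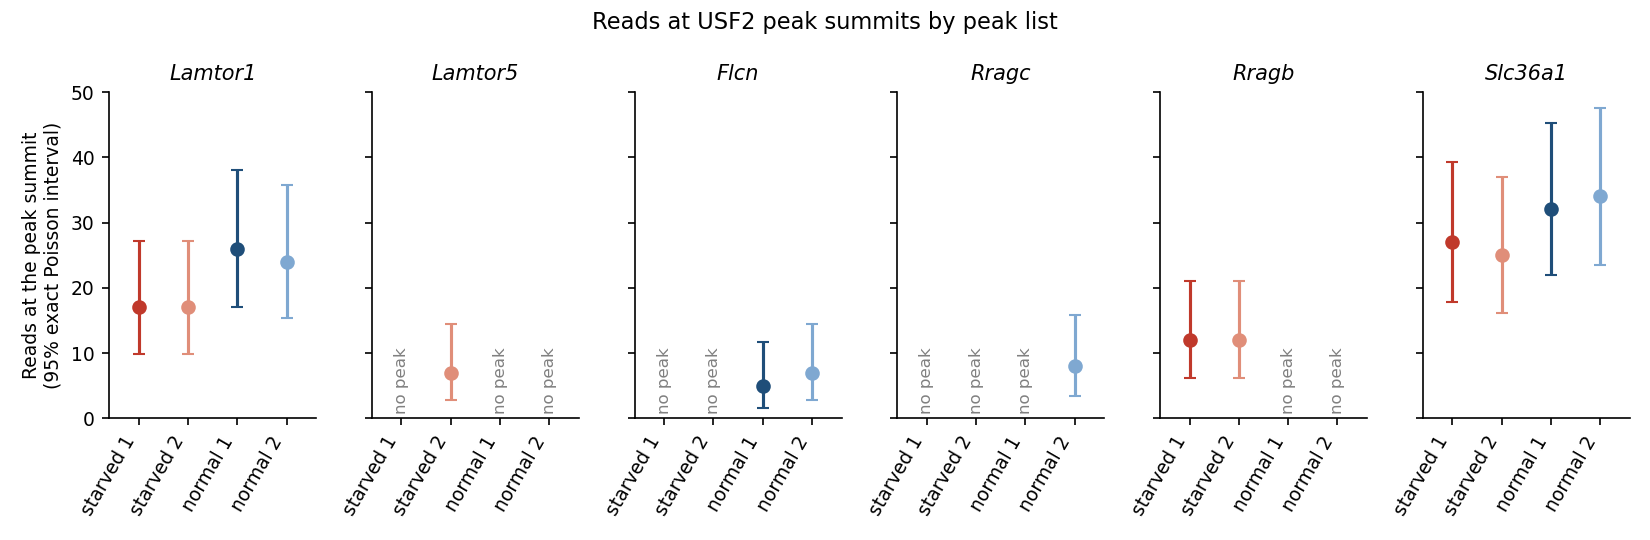
Reads at the USF2 peak summit (y axis, with 95% exact Poisson intervals, counting error only) in the 4 peak lists (x axis) for the 4 called genes of the family, for Rragb and for Slc36a1. Lamtor1 and Slc36a1 had a peak in every list, Rragb in the starved lists, Flcn in the normal lists, and Lamtor5 and Rragc in 1 list each.

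Lamtor1 is the lipid-anchored subunit that fixes Ragulator to the lysosomal membrane and wraps round the other subunits. The gene spans 101905837 to 101911903 on chromosome 7. Its peaks ran from 101905650 to 101905983 in starved 1, 101905609 to 101905983 in starved 2, 101905588 to 101905935 in normal 1 and 101905599 to 101905935 in normal 2. Its USF2 summits lay at the transcription start, 6 and 9 bp upstream of it in starved 1 and starved 2 and 18 and 20 bp upstream in normal 1 and normal 2. The fold enrichment was 5.81 and 6.19 in the starved lists and 10.9 and 10.1 in the normal lists. The −log10 q was 6.22 and 6.89 in the starved lists and 18.5 and 16.2 in the normal lists. Lamtor1 thus stood within the first 32.6% and 22.7% of the starved lists (rank 269 in both) and within the first 5.05% and 5.60% of the normal lists (ranks 83 and 119). The summit reads were 17 in each starved library, against 26 and 24 in the normal libraries. Their 95% exact Poisson intervals, which cover counting error only, were 9.90 to 27.2 for each starved library, and 17.0 to 38.1 and 15.4 to 35.7 for the normal libraries.

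Read counts of the starved and normal lists did not overlap at Lamtor1, while their counting intervals did. The same was seen at Slc36a1, a pathway gene described below, with 27 and 25 reads in the starved libraries and 32 and 34 in the normal libraries. The share of all regions whose read counts did not overlap in this way was not counted. The local background at Lamtor1 was 2.10 and 1.91 reads in the starved libraries and 1.48 in each normal library. Neither these backgrounds nor the summit reads are scaled to calling width. The narrowest peak was 306 bp in both starved lists and 152 bp in both normal lists. Which condition had the higher background for a given width cannot be read from these values. Because the lists differ in length, Lamtor1 was also ranked among the 247 regions that all 4 lists called, a set of the same size in each. There it was at rank 187 and 173 in the starved lists and at rank 70 and 90 in the normal lists, a mean of 180.0 ± 9.9 against 80.0 ± 14.1 (SD, n = 2 each). The difference of 100 ranks gave p = 0.33 in the exact two-sided permutation test, the smallest value possible. Of the 247 regions, 9.72% moved at least as far down in the starved lists, and 36.4% had both starved ranks below both normal ranks. The median summit of these regions had 18 reads in each starved list and 17 reads in each normal list, so by reads Lamtor1 was near the median in the starved lists and above it in the normal lists. Their median fold enrichment was 8.05 and 7.94 in the starved lists and 9.46 in each normal list, so by fold enrichment Lamtor1 was below the median in the starved lists and above it in the normal lists. Ranked by fold enrichment it was at 213 and 196 in the starved lists and at 93 and 106 in the normal lists. The part that local background, depth and calling width have in this shift was not tested.

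**Figure D2:**
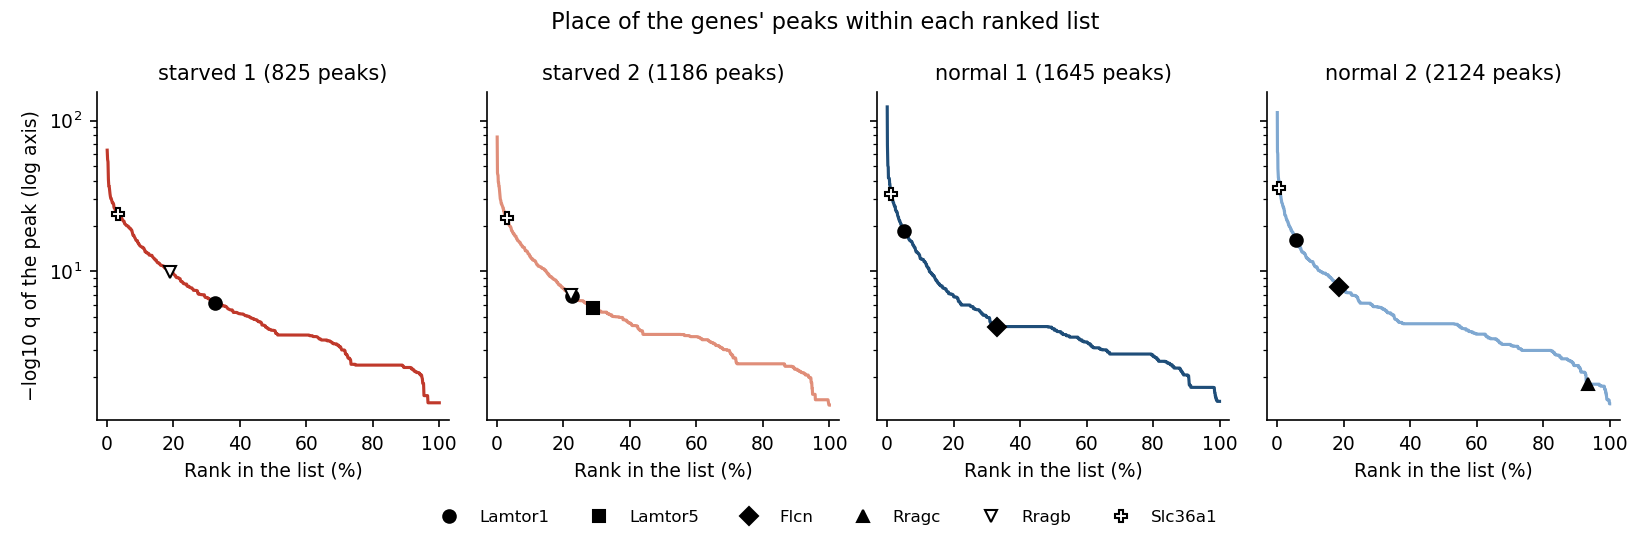
The −log10 q of all peaks of each list (y axis, log scale) by rank in that list in percent (x axis), with the peaks of the named genes marked. Lamtor1 was within the first 32.6% and 22.7% of the starved lists and the first 5.05% and 5.60% of the normal lists, and Rragc was near the end of normal 2, at 93.4%.

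The peak at Lamtor1 also lay inside Tomt, a gene of the opposite strand needed for hearing, whose start is 522 bp from that of Lamtor1. The summits were 528 and 531 bp from the Tomt start in the starved lists and 540 and 542 bp in the normal lists. Tomt and Lamtor1 overlap head to head, so the peak cannot be assigned to 1 of them from position alone, although the Lamtor1 start was the nearer in every list. The peaks of the starved lists shared their downstream edge, 146 bp into Lamtor1, and those of the normal lists shared theirs, 98 bp into the gene. Such an identical edge was found in 21.7% of 543 regions for the starved pair of lists and in 44.7% of 1052 regions for the normal pair. Whether the libraries of a condition share reads was not tested.

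The Lamtor1 promoter held CACGTG once, at positions -68 to -63 counted from the start, which is position 0, as printed above. The summits did not fall on it but on the side of the gene, 57 and 54 bp away in the starved lists and 45 and 43 bp away in the normal lists. For all promoters that held both a summit and the hexamer, the median distance was 15 and 20.5 bp in the starved lists and 10.5 and 9 bp in the normal lists. A distance at least as long as at Lamtor1 was found in 9.06% and 19.0% of such promoters in the starved lists and in 9.16% and 11.5% in the normal lists. Other E-box forms (CANNTG) in the promoter, CATGTG at -184 to -179 and at -97 to -92 and CACTTG at -249 to -244, were farther from every summit than CACGTG was.

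**Figure D3:**
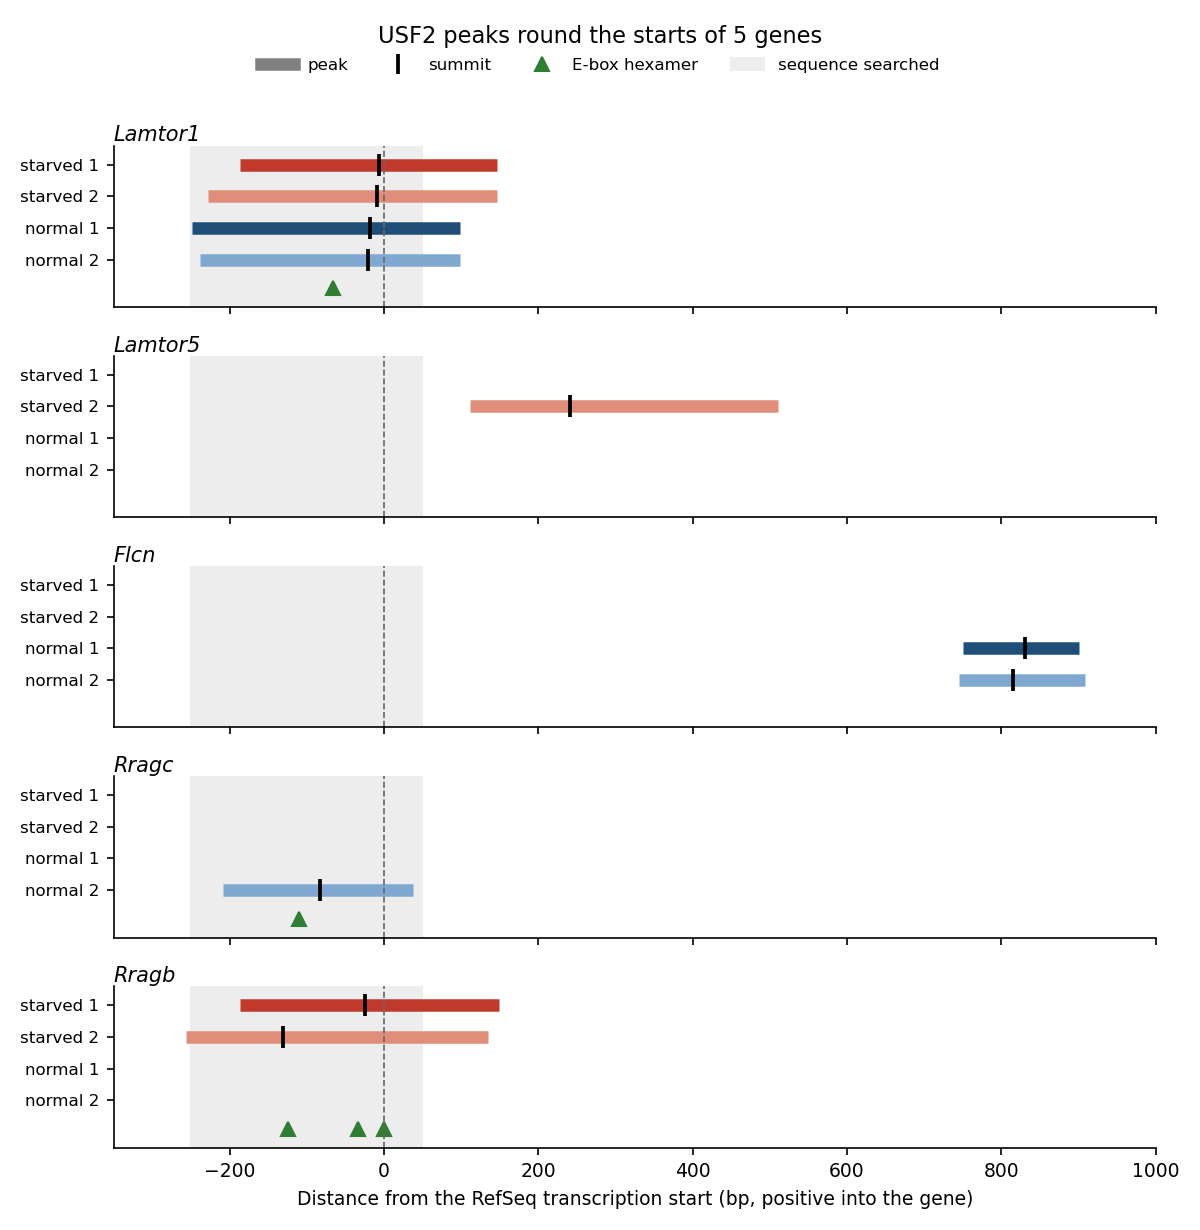
Peaks (bars) and summits (black ticks) of the 4 lists by distance from the RefSeq transcription start in bp (x axis), with the E-box hexamer CACGTG (triangles) where it was found in the searched promoter (grey). The Lamtor1 peaks covered the start in every list, the Flcn peaks lay 745 to 908 bp into the gene, and the Lamtor5 peak began 111 bp into the gene.

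Among the other Ragulator genes, Lamtor5, which pairs with Lamtor4 in the complex, had a peak in starved 2 alone. Its summit lay 241 bp into the gene (chromosome 3, 107278969 to 107279369), with 7 reads, a fold enrichment of 6.68 and a −log10 q of 5.75 (rank 341 of 1186). The counting interval of these reads was 2.81 to 14.4. No other annotated gene had an end within 1000 bp of this summit. The promoter window ended before the peak began, and it held no CACGTG.

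Lamtor2 and Lamtor3, the roadblock-domain pair on which the Rag GTPases dock, had no peak by this rule in any list. The nearest peak to Lamtor2 was in normal 2, 2222 bp from the end of the gene opposite its start, inside Rab25 and 682 bp from an end of that gene, with 5 reads and a fold enrichment of 5.46. It is the closest peak outside the 1000 bp limit, while the farthest inside it were those of Flcn, at 815 and 831 bp. No peak was found within 50000 bp of Lamtor3, Lamtor4, Fnip1 or Rragd. Lamtor3 had no entry in the promoter table.

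Flcn encodes folliculin, a tumour suppressor mutated in human Birt-Hogg-Dubé syndrome. The gene runs from 59791408 to 59810039 on the minus strand of chromosome 11, and both normal lists had a peak inside it near its start, while neither starved list did. Of all protein-coding genes, 2.19% had a gene-end peak in both normal lists and 1.13% in all 4 lists. The share called in both normal lists and in neither starved list was not counted, and the normal lists were also the longer ones. The Flcn peak ran from 59809138 to 59809289 in normal 1 and from 59809131 to 59809294 in normal 2, with the summit 831 and 815 bp into the gene. Normal 1 had 5 reads there, a fold enrichment of 5.47 and a −log10 q of 4.32 (rank 543 of 1645), and normal 2 had 7 reads, 7.29 and 7.94 (rank 395 of 2124). The background was 0.0979 reads in both, the lowest of their lists. The counting intervals were 1.62 to 11.7 and 2.81 to 14.4 reads. The start of the noncoding gene Gm16062, on the opposite strand, was 872 and 856 bp from these summits and 41 bp from the Flcn start. The promoter of Flcn held no CACGTG in its 300 bases, and the sequence under the peak itself lies outside that window and was not read. Fnip1, the adaptor that joins folliculin to its Rag targets, had no peak in any list, although its promoter held CACGTG at -75 to -70 from the start.

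Among the Rag GTPases, Rragc had a peak in normal 2 alone (chromosome 4, 123917225 to 123917471). Rragc is the GTPase that folliculin acts on and that pairs with Rraga or Rragb. Its summit was 83 bp upstream of the start, with 8 reads over a background of 1.19, a fold enrichment of 4.11 and a −log10 q of 1.79. At rank 1983 of 2124 it was among the weakest peaks of that list, and the counting interval of its reads was 3.45 to 15.8. The summit lay 24 bp from the CACGTG printed above, which sits at -112 to -107 from the start, and 28.4% of promoters with summit and hexamer in normal 2 had a distance at least as long. It also lay inside the span of D130007C19Rik, an RNA gene whose end is 99 bp away. Rraga had no peak at its ends; the nearest, in normal 1, was 34912 bp away and 122 bp from an end of Haus6, with a fold enrichment of 3.90. The nearest peak to Rragd, in starved 2, was 1860767 bp away, at Zfp292, and no CACGTG was found in the promoters of Rraga and Rragd.

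The RefSeq promoter table matched 9 of the 10 genes. CACGTG was in 4 of these 9 promoters (44.4%), those of Lamtor1, Lamtor4, Fnip1 and Rragc. It was in 2349 of all 32851 promoters (7.15%). The 32851 entries cover 27025 genes, while 17492 protein-coding genes had a start among them. The family is protein-coding throughout, so 44.4% and 7.15% are not shares of like sets. The share among protein-coding promoters alone was not counted. Of the 2349 promoters with the hexamer, 403 held a USF2 summit in some list (17.2%), and in the family this was so at Lamtor1 and Rragc. Of promoters with a summit, 87.0% and 85.5% held the hexamer in the starved lists and 69.1% and 64.1% in the normal lists. Neighbouring genes and alternative starts share promoters, so these entries are not independent. A match is a run of letters and not a measured site.

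**Figure D4:**
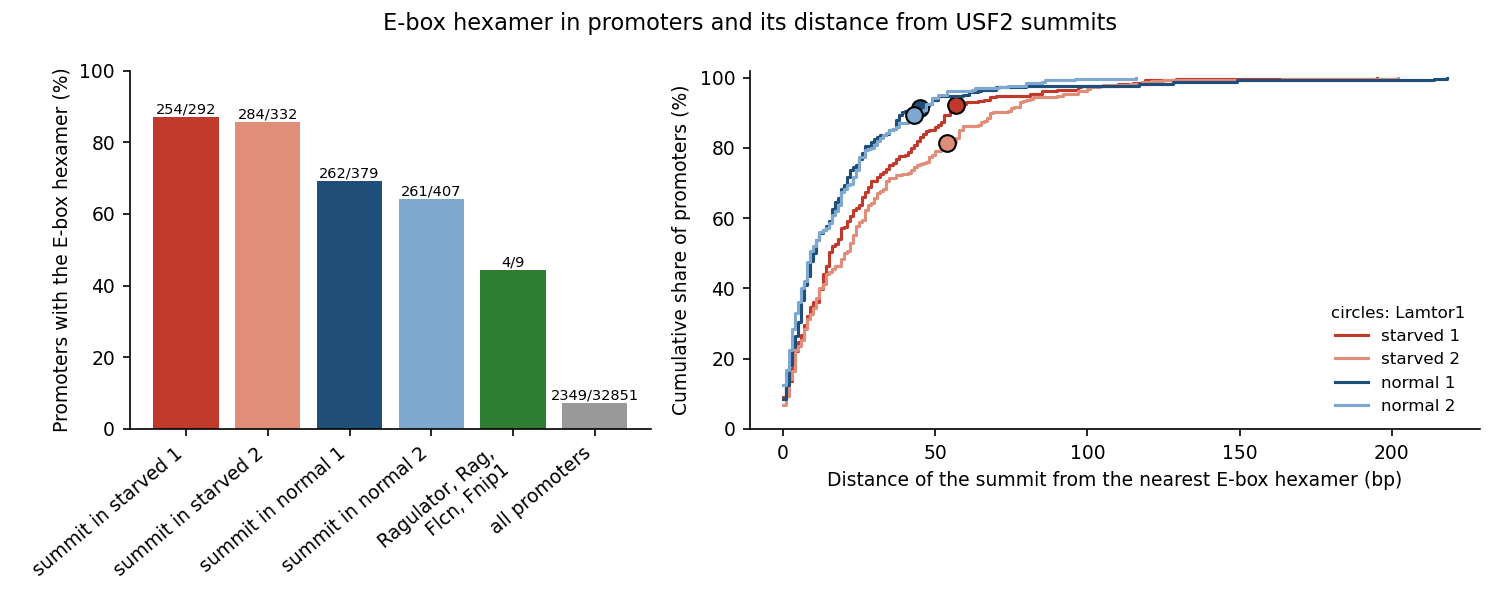
Left, the share of promoters that held CACGTG (y axis, percent, with counts above the bars) among promoters with a USF2 summit in each list, among the 9 promoters of the family and among all promoters. All promoters include those of genes that are not protein-coding. Right, the cumulative share of promoters (y axis, percent) by distance from summit to hexamer in bp (x axis), with Lamtor1 as circles: 57 and 54 bp in the starved lists and 45 and 43 bp in the normal lists.

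The rest of the pathway was read from 50 further genes in 8 role lists, of which 49 were in the gene table. At gene ends 2 of the 49 had a peak in any list, Slc36a1 and Bloc1s1, against 4.05% of all protein-coding genes. None was found for the 5 mTORC1 subunits, the 4 genes of Rheb and the TSC complex, the 6 GATOR1 and KICSTOR genes, the 5 GATOR2 genes, the 5 relatives of the Rag and folliculin genes or the 8 substrates and MiT/TFE factors. Slc36a1 was 1 of 8 amino acid sensors and Bloc1s1 1 of 8 BORC genes. Slc36a1, a lysosomal amino acid transporter, was called in all 4 lists, with 27 and 25 reads in the starved libraries and 32 and 34 in the normal libraries. Among the 247 shared regions it stood at rank 27 and 33 in the starved lists and at rank 20 and 14 in the normal lists, a difference of 13 ranks (exact two-sided permutation p = 0.33, again the lower limit). Its promoter held more than 1 CACGTG, and its summits were at most 12 bp from a copy: 4 and 12 bp in the starved lists and 5 and 0 bp in the normal lists. Bloc1s1, a subunit of the BORC complex that places lysosomes in the cell, had peaks in both starved lists (19 and 23 reads) and in normal 1 (11 reads).

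Rragb, the close relative of Rraga, had a peak at its start in both starved lists and in neither normal list, as did 0.657% of the 17492 protein-coding genes with a start in the promoter table. It was missed by the gene-end rule because its annotated span reaches farther upstream, and the summits were 2289 and 2183 bp from the nearest end of the span. The peaks ran from 153139771 to 153140107 in starved 1 and from 153139701 to 153140093 in starved 2 on chromosome X. Both libraries had 12 reads at the summit (counting interval 6.20 to 21.0), with fold enrichments of 9.18 and 7.38. The summits lay 25 and 131 bp upstream of the start, 6 and 4 bp from different copies of CACGTG, of which the promoter held 3. Inside genes and away from their ends, Sesn1, of the Sestrin family of leucine sensors, had a peak in both normal lists, with 5 and 7 reads. Castor1 and Castor2, of the arginine sensor family, and Tfeb had such a peak in normal 2 alone, with 4, 6 and 6 reads. Rragb included, 5 of the 49 pathway genes had such a peak in any list, against 6.65% of all protein-coding genes. Gene length was not taken into account.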

How the data were processed

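USF2 ChIP-seq peak lists of 4 libraries were analysed, each called on 1 library and not pooled. Per the submitters' processing notes, Bowtie2 2.5.1, MACS2 2.2.7.1, deepTools 3.5.1 and the build GRCm38 were used. Parameters and the use of the inputs as control are not given in the sources used here. The deposited lists hold a fold enrichment (a ratio of summit pileup to local background), −log10 p, −log10 q and a score, all as the authors' peak caller wrote them. The deposited start, end and summit positions were turned to 1-based coordinates.

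Computed here, with Python 3.11.15, pandas 2.3.3 and scipy 1.17.1, were gene-end calls (RefSeq, GRCm38.p6), ranks by −log10 q within each list, regions merged at any overlap, and the reads k and background b with fold (k + 1)/(b + 1) and a Poisson tail matching −log10 p. Every peak matched within 0.000265. Steps were tested on simulated data. Strands and transcription starts came from the RefSeq promoter table. Exonic, intronic and UTR positions were not annotated in the tables used, and no genome sequence was used here.

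The named genes were the 10 members, pathway genes with a peak, neighbours within 1000 bp of a member summit, and the nearest peak within 50000 bp for members without one; the peak nearest to Rragd lies farther and was named after its value was seen. Members and lists were chosen with earlier results of these data known. Alternatives were other windows, thresholds, list lengths and left-out libraries.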

Additional observations from a re-analysis of the deposited data

How the results depend on the processing

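Lamtor1 and Slc36a1 were called in all 4 lists, and Lamtor5 in starved 2, with every window, threshold, list length and overlap rule tried. The calls of Flcn, Rragc and Lamtor2 depended on the setting. Within 500 bp of a gene end Flcn was lost, so normal 1 and both normal lists together had 1 member each and the starved minus normal difference was 0. With −log10 q of at least 5, Flcn was lost in normal 1 and Rragc in normal 2, which again left 1 member in normal 1, 1 in both normal lists and a difference of 0. Rragc was also lost with the lists cut to the shortest. Within 5000 bp normal 2 had 4 members, Lamtor2 being added, and the difference was -1.5. With this window normal 2 also had 2 pathway genes, Castor1 being added to Slc36a1. Rragb was added in both starved lists and Wdr24, of GATOR2, in normal 1. Over the left-out libraries the difference ran from -1.5 to -0.5, members in both starved lists from 1 to 2 (Lamtor5 counts where starved 1 is left out), pathway genes in both normal lists from 1 to 2 and in all 4 lists from 1 to 2 (Bloc1s1 counts where normal 2 is left out). Members in both normal lists numbered 3 without normal 1, where Rragc counts. In these cases 1 list decides for its condition. With the replicate number as a block the difference was -1, from -1 in each pair; the exact two-sided sign-flip permutation p was 0.5, the smallest that 2 pairs allow. Over the 247 shared regions, deviations of same-numbered libraries from their condition means correlated at -0.07 (log2 fold enrichment) and 0.04 (log2 reads), which does not establish that the numbers pair the libraries. The looser E-box CANNTG was in 7 of the 9 promoters and in 72.3% of all promoters, which are not of protein-coding genes alone. The Lamtor1 rank difference lay between 78 (ranked by reads) and 110 (without normal 2) over settings chosen after the data were seen. The planned motif search round the summits was not run, as no genome sequence was used here. Few reads per peak limit any single weak call.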

Other observations

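Rragb, Slc36a1 and Bloc1s1, the pathway genes with a USF2 peak at their start, each had a copy of CACGTG at the same place, from 3 bp before to 2 bp after the RefSeq transcription start. Over all promoters in the table this was the most frequent of 295 possible places, with 27 promoters against a median of 8 per place. Of the 27, 13 held a USF2 summit in some list, and of all 2349 promoters with the hexamer 403 did. The place was picked from Rragb, Slc36a1 and Bloc1s1, which were named for their peaks and are among the 13. The 2 counts can therefore not be set against each other. The summits of these genes often lay away from this copy. They were 22 and 128 bp from it at Rragb (starved 1 and starved 2). At Bloc1s1 they were 104 and 49 bp from it in the starved lists and 62 bp in normal 1. At Slc36a1 the distances were 4 and 40 bp in the starved lists and 5 and 0 bp in the normal lists. In the family of 10 the hexamer lay farther upstream, with its first base between -120 and -68 bp from the start. These values were noticed after the data were seen, and the difference was not tested.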
